A study of Mus musculus with 8 samples.

Results

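Genes of the major histocompatibility complex (MHC, called H2 in the mouse) and of antigen presentation were followed in hair follicle bulge cells with and without the histone methyltransferase G9a. A probe set was taken as a member if its gene symbols were all H2 genes of the A, D, E, K, M, O, Q or T series, or if its gene was 1 of 14 named genes of peptide processing, peptide loading and MHC transcription. This gave 70 probe sets of 45037, for 35 genes. Of these, 65 carried matching symbols alone. The other 5 listed H2-K1 and H2-D1 beside the predicted locus LOC547349 and were kept because they carry several H2 symbols, with counts over the 65 given alongside. Another 4 H2 probe sets (3 shared by H2-Q6 with Ddx39b, and 1 of H2-Bl) fell outside the rule. B2m, Tap1 and Tap2, which are on the list of 14, were not analysed here.

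MHC class I molecules sit on nearly all nucleated cells and show peptides from the cell's own proteins to CD8 T cells. The peptides are cut by the proteasome and its interferon-inducible immunoproteasome subunits, trimmed in the endoplasmic reticulum, and loaded by a complex that includes tapasin, calreticulin and ERp57. Class Ib molecules are less variable relatives of the classical class Ia chains that show specialised ligands to T cells and natural killer cells. Class II molecules show peptides from the endosomal route to CD4 T cells, mainly on dendritic cells, macrophages and B cells, and in skin on Langerhans cells, while keratinocytes can make them under interferon gamma. NLRC5 and CIITA are the transactivators of the class I and class II genes. G9a, the product of Ehmt2, methylates lysine 9 of histone H3, a mark linked to silent genes, and Ehmt2 itself lies inside the mouse MHC.

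Bulge cells of G9a cKO animals (a conditional knockout) and of G9a WT animals were measured in 4 replicates a group, each on 1 Affymetrix array. Whether each replicate is a separate animal is not stated in the titles. Both groups carry the same carcinogen treatment, so no untreated skin enters the comparison: DMBA, a mutagen (0.25 mg/ml), and TPA, a tumour promoter (0.02 mg/ml), 200 µl of each in acetone, went onto shaved back skin weekly for 6 weeks, beginning at 8 weeks of age. The labels give an age of 15 weeks and call the tissue pre-neoplastic epidermis. Not given in the sources used here are the Cre driver, which part of Ehmt2 was deleted, sex, and how bulge cells were isolated.

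The targeted gene was read by 2 probe sets. Ehmt2 probe set 1460692_PM_at read 6.44, 5.54, 5.80 and 5.64 on the log2 scale in G9a cKO, against 9.29, 8.89, 8.93 and 9.15 in G9a WT, a change of -3.21 (limma adjusted p = 6.23e-05). Probe set 1426888_PM_at averaged 8.41 in both groups (limma adjusted p = 0.995). Which of them lies in the deleted part is not known here, so the second checks nothing. Ehmt1, the partner methyltransferase, averaged 9.18 ± 0.09 in G9a cKO and 9.17 ± 0.07 in G9a WT (SD, n = 4 each). All 10 bulge and basal keratinocyte markers listed averaged above 9.8 in both groups, and none passed the threshold. At an unadjusted p under 0.05 in limma, 1 was higher and 1, Nfatc1, was lower. The change of Nfatc1 was -0.35 (limma adjusted p = 0.0702). Without G9a WT replicate 4 it was -0.38 and passed the threshold (limma adjusted p = 0.0422). Array medians lay between 5.87 and 5.95. On the first principal component (37.0% of the variance) G9a WT replicate 4 lay at 1.42, the other G9a WT arrays between 15.3 and 23.0 and the G9a cKO arrays between -18.6 and -6.53. Some calls and values are therefore given without that array too, but not all that moved. Without it, for example, the change of Cd74 went from -0.12 to -0.38 and that of Ctss, a cathepsin, from -0.24 to -0.53.

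Of the presentation genes, H2-M3, a class Ib heavy chain, was called higher in G9a cKO, and no member probe set was called lower. The H2-M3 call was lost in 4 of 8 fits that left out 1 array. Without G9a WT replicate 4, 2 member probe sets were called lower, both of Tapbp. A probe set of H2-Q1, another class Ib chain, also passed the threshold with a higher value in G9a cKO, but at a level where values are mostly background. A probe set was called changed when its limma adjusted p, over all 45037 probe sets, was under 0.05. The 2 called are 2.86% of the 70 members, beside 1.78% over all probe sets in either direction (1.19% higher and 0.591% lower). The same 2 were called among the 65 probe sets of matching symbols alone. Before adjustment, 9 members were higher and 6 lower at p under 0.05, together 21.4%, beside 13.0% over all probe sets (6.46% higher and 6.53% lower). On 9 members (12.9%) the arrays of the groups did not overlap, 6 with every G9a cKO array above and 3 with every one below, beside 7.35% over all probe sets (4.15% above and 3.19% below). Changes were split evenly, with 35 above 0 and 35 below. Their median was 0.0019 on the log2 scale, beside -0.0036 over all probe sets. Taking the probe set of highest mean for each gene, 2 of 35 member genes were called, beside 2.33% of 17097 genes.

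**Figure D1:**
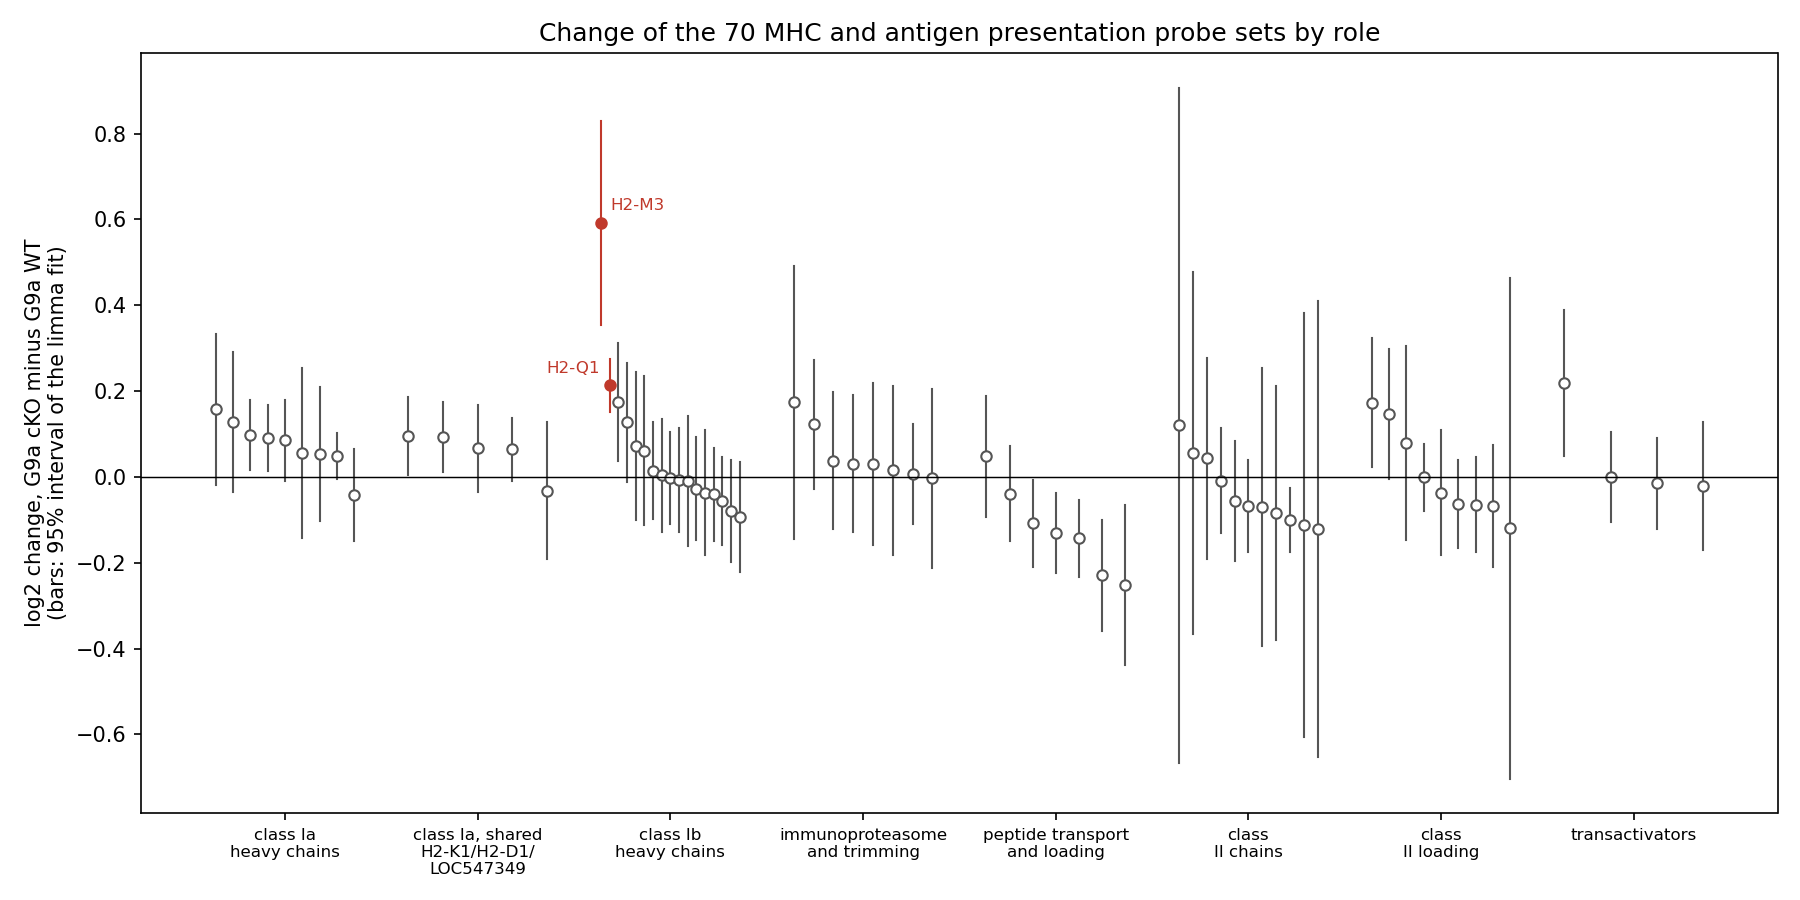
Log2 change, G9a cKO minus G9a WT, of each of the 70 member probe sets, grouped by role on the horizontal axis and ordered by size within a role. Vertical bars are 95% intervals of the limma fit (4 arrays against 4), and the filled red points, H2-M3 at 0.59 and H2-Q1 at 0.21, are the 2 with an adjusted p under 0.05. The widest intervals belong to the class II genes.

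H2-M3 encodes the class Ib chain that binds peptides beginning with N-formyl methionine, which come from bacteria and mitochondria. Probe set 1421358_PM_at read 8.15, 8.60, 8.47 and 8.21 in G9a cKO, against 7.97, 7.70, 7.73 and 7.67 in G9a WT. Every G9a cKO array lay above every G9a WT array. The mean was 8.36 ± 0.21 in G9a cKO and 7.77 ± 0.14 in G9a WT (SD, n = 4 each), which is 1.51-fold higher (log2 change 0.59, 95% interval 0.35 to 0.83, limma adjusted p = 0.0195). The change was 0.51 to 0.66 under the alternatives tried, but the call was lost when any of 4 arrays was left out. The limma adjusted p was then 0.0578 without G9a cKO replicate 2, 0.0635 without G9a cKO replicate 3, 0.0573 without G9a WT replicate 2 and 0.0720 without G9a WT replicate 3. In these bulk samples, more cells of a type and more RNA per cell cannot be told apart, and neither can fewer cells of a type and less RNA per cell.

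The promoter of H2-M3 is shown beside those of the class Ia genes H2-K1 and H2-D1, because H2-M3 was called changed and they were not. The windows run from 250 bases before to 50 bases after the RefSeq gene start in GRCm38.p6, on chr17:37269984-37270283 (plus strand) for H2-M3, chr17:34000298-34000597 (minus strand) for H2-K1 and chr17:35262844-35263143 (plus strand) for H2-D1. Capitals mark, on either strand, GAANNGAAA (an interferon-response core), TGACG (a site in the X2 box bound by CREB and ATF factors) and ATTGG (the Y box bound by NF-Y). Kappa-B sites were searched too, but their spelling was settled after matches had been seen, so no count of them is given. No match overlapped that of another motif in these windows.
H2-M3: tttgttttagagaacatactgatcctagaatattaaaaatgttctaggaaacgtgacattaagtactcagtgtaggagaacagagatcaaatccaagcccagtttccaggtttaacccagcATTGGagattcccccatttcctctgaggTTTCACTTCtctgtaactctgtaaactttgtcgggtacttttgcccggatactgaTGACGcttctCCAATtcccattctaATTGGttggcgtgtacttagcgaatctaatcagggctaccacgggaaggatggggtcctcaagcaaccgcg
H2-K1: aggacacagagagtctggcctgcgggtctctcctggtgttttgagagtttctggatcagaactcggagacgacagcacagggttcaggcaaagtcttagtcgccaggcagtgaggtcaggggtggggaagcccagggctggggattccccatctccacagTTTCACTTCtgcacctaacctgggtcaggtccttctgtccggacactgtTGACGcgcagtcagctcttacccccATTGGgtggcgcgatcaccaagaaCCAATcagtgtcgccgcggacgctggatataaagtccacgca
H2-D1: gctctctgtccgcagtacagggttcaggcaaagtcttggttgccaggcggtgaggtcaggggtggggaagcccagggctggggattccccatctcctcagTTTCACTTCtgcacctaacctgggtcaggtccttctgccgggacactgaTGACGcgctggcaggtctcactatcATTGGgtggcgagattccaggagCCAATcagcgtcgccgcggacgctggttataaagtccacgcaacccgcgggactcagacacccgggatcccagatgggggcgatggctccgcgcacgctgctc
Counting from the first base, the H2-M3 window holds the interferon core at 150, TGACG at 205 and ATTGG at 122, 215 and 230. H2-K1 has the interferon core at 161, TGACG at 210 and ATTGG at 235 and 259. H2-D1 has the core at 101, TGACG at 150 and ATTGG at 175 and 198. Over the 26 member genes that have a window, the interferon core was in 5 (H2-D1, H2-K1, H2-M3, H2-Q10 and H2-Q4), beside 7.52% of all 32851 windows. TGACG was in 9 of the 26 (20.8% of all windows) and ATTGG in 21 (37.4%). The 26 genes have 29 windows, and a gene was counted if any of its windows matched. The shares over all are per window, so the 2 counts are not of the same kind. H2-K1 has 2 windows, of which only the first listed is shown. Such matches describe the letters and show no binding.

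H2-Q1, a class Ib chain of the Q region, read 3.54, 3.54, 3.58 and 3.62 in G9a cKO, against 3.34, 3.37, 3.35 and 3.38 in G9a WT. The groups did not overlap. The mean was 3.57 ± 0.04 in G9a cKO and 3.36 ± 0.02 in G9a WT (SD, n = 4 each), a log2 change of 0.21 (95% interval 0.15 to 0.27, limma adjusted p = 0.00306), and the call held when any 1 array was left out. These levels lie at the bottom of the array's scale (percentile 1.11 of all probe sets), where values are mostly background and where arrays of this kind resolve small steps poorly. Whether the probe set reads H2-Q1 transcript at all was not tested.

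The other class Ib chains did not pass the threshold. Of the 17 class Ib probe sets, for 12 genes, 8 were above 0 and 9 below, with a median of -0.0026. H2-Q4, whose product is also called Qb-1, read 11.08, 11.24, 11.15 and 11.05 in G9a cKO, against 11.03, 11.01, 11.00 and 10.78 in G9a WT. The groups did not overlap, with G9a WT replicate 4 lowest, and the change of 0.18 missed the threshold (limma adjusted p = 0.242). Without that array it was 0.12 (limma adjusted p = 0.249). H2-T23, which encodes Qa-1, the ligand of the NKG2A receptor of natural killer cells, averaged 11.20 ± 0.07 in G9a cKO and 11.28 ± 0.10 in G9a WT. Its second probe set averaged 7.24 ± 0.09 in G9a cKO and 7.18 ± 0.13 in G9a WT, so the pair differed in sign, and the arrays overlapped in both. H2-T10 averaged 10.76 ± 0.10 in G9a cKO and 10.64 ± 0.11 in G9a WT. H2-Q5 averaged 10.98 ± 0.10 in G9a cKO and 10.91 ± 0.16 in G9a WT. H2-T24 averaged 8.46 ± 0.08 in G9a cKO and 8.46 ± 0.11 in G9a WT (SD, n = 4 each throughout). RefSeq lists H2-Q5 and H2-T10 as transcribed pseudogenes. H2-T3, the thymus leukaemia antigen, was read by 4 probe sets, all under 5 on the log2 scale, with changes of -0.06 to 0.02.

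The classical class Ia chains H2-K1 and H2-D1, which show most peptides to CD8 T cells, had no called probe set. Of 14 class Ia probe sets, the 5 shared with LOC547349 included, 9 averaged above 8, and these 9 all had a change above 0, with a median of 0.090. Of the 9, 4 had an unadjusted p under 0.05 in limma. Of all 9870 probe sets that averaged above 8, 5539 had a change above 0, with a median of 0.012. At an unadjusted p under 0.05 in limma, 810 of the 9870 were higher. H2-K1 probe set 1425336_PM_x_at read 12.67, 12.72, 12.68 and 12.64 in G9a cKO, against 12.64, 12.63, 12.63 and 12.61 in G9a WT. These arrays did not overlap, but by a margin under the second decimal, and the change was 0.05 (95% interval -0.01 to 0.10, limma adjusted p = 0.450). H2-D1 probe set 1451784_PM_x_at read 11.98, 12.07, 12.04 and 12.05 in G9a cKO, against 11.98, 11.97, 11.98 and 11.87 in G9a WT, again without overlap. Its change was 0.09 (95% interval 0.01 to 0.17, limma adjusted p = 0.287). The shared probe set 1451683_PM_x_at read 11.33, 11.39, 11.39 and 11.31 in G9a cKO, against 11.29, 11.29, 11.29 and 11.19 in G9a WT (limma adjusted p = 0.309). It was the third of the 9 whose arrays did not overlap. Of the 9870, 533 had every G9a cKO array above every G9a WT array.

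The same arrays were high and low across these 9 probe sets. G9a cKO replicate 2 was the highest of the 8 arrays on 8 of the 9, and G9a WT replicate 4 was the lowest on 9 of 9. Without G9a WT replicate 4 the median change was 0.060, and all 9 stayed above 0. Over all alternatives it was 0.060 to 0.107. Class I chains are close copies of each other, and 20 of the 70 member probe sets carry the x_at ending of probe sets that can read several transcripts, so a value named H2-K1 or H2-D1 may hold signal of both, or of LOC547349. They are not independent measurements. The 5 dimmer class Ia probe sets, with means of 5.08 to 7.10, had changes of -0.04 to 0.13, 3 above 0 and 2 below.

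The immunoproteasome and the trimming enzyme showed no called change. Over 8 probe sets of 4 genes the median was 0.03, and 0 passed either the limma threshold or an unadjusted p under 0.05. Psmb8 (the LMP7 subunit) read 9.72, 9.95, 9.90 and 9.65 in G9a cKO, against 9.93, 9.65, 9.87 and 9.65 in G9a WT, and the arrays overlapped throughout. Psmb9 (LMP2) averaged 9.61 ± 0.14 in G9a cKO and 9.57 ± 0.09 in G9a WT, with a 95% interval for the difference of -0.12 to 0.20. Psmb10 (MECL-1) averaged 8.52 ± 0.14 in G9a cKO and 8.50 ± 0.14 in G9a WT, with an interval of -0.18 to 0.21. Erap1, the aminopeptidase that trims peptides in the endoplasmic reticulum, averaged 6.86 ± 0.06 in G9a cKO and 6.74 ± 0.11 in G9a WT (limma adjusted p = 0.513; SD, n = 4 each throughout). Psmb8 and Psmb9 lie beside the class II genes in the MHC, and Psmb10 and Erap1 lie on other chromosomes.

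The 7 peptide loading probe sets read 4 genes, and limma called none. Of the 7, 6 were below 0, beside 23390 of all 45037 probe sets. The median of the 7 was -0.13, beside -0.0036 over all probe sets. An unadjusted p under 0.05 was found on 5, all lower: both Tapbp, both Calr and 1 Canx probe set. Over all probe sets, 6.53% were lower at that p. Tapbp encodes tapasin, which holds class I chains at the peptide transporter. Its probe set 1421812_PM_at read 10.22, 10.21, 10.34 and 10.26 in G9a cKO, against 10.59, 10.53, 10.50 and 10.33 in G9a WT. Only G9a WT replicate 4 reached into the range of the G9a cKO arrays. The change was -0.23 (95% interval -0.36 to -0.10, limma adjusted p = 0.0900). Without G9a WT replicate 4 it was -0.28 and passed the threshold (limma adjusted p = 0.0116). The second Tapbp probe set, 1450378_PM_at, read 8.45, 8.62, 8.60 and 8.68 in G9a cKO, against 8.90, 8.96, 8.90 and 8.60 in G9a WT. It had the same outlying array and a change of -0.25 (limma adjusted p = 0.210, and 0.0224 without G9a WT replicate 4).

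Calreticulin, the lectin chaperone of the loading complex, was read by a pair of probe sets that gave like values. Calr probe set 1456170_PM_x_at read 10.90, 10.89, 10.86 and 10.95 in G9a cKO, against 10.96, 11.07, 11.04 and 11.10 in G9a WT. Every G9a cKO array lay below every G9a WT array, by a narrow margin, and the change was -0.14 (95% interval -0.23 to -0.05, limma adjusted p = 0.132). The other, 1417606_PM_a_at, also did not overlap (change -0.13, limma adjusted p = 0.190). Canx (calnexin, its membrane-bound relative) averaged 10.94 ± 0.06 in G9a cKO and 11.05 ± 0.07 in G9a WT on its brighter probe set, a change of -0.11 (limma adjusted p = 0.341), and the second gave -0.04. Pdia3, which encodes ERp57, was read only by a dim probe set that averaged 5.36 ± 0.11 in G9a cKO and 5.31 ± 0.05 in G9a WT (SD, n = 4 each). Calr, Canx and Pdia3 also serve the folding of glycoproteins in general.

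The brighter class II chains had wide spreads within each genotype. None of their 11 probe sets was called by limma, and 1 had an unadjusted p under 0.05, a dim H2-Ea probe set that averaged 3.80 ± 0.03 in G9a cKO and 3.90 ± 0.05 in G9a WT without overlap (limma adjusted p = 0.221). RefSeq lists H2-Ea as a transcribed pseudogene. H2-Ab1 encodes the beta chain of the A molecule. Its probe set 1450648_PM_s_at read 8.55, 9.18, 8.54 and 7.80 in G9a cKO, against 8.68, 8.45, 9.10 and 7.36 in G9a WT. The spread within genotypes (pooled SD 0.66) was above that of 99.9% of all probe sets, and the difference of 0.12 had a 95% interval of -0.67 to 0.91. It was -0.23 to 0.36 when 1 array was left out, so its sign is not settled. H2-Aa, its alpha chain partner, read 7.69, 7.98, 7.63 and 7.11 in G9a cKO, against 7.77, 7.59, 8.28 and 7.20 in G9a WT. H2-Eb1, the beta chain of the E molecule, read 8.92, 9.32, 8.65 and 8.47 in G9a cKO, against 8.76, 8.33, 9.05 and 8.99 in G9a WT. H2-Eb2 averaged 5.09 ± 0.05 in G9a cKO and 5.10 ± 0.08 in G9a WT (SD, n = 4 each).

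The invariant chain Cd74, which guards the class II groove until it reaches the endosome, followed the same arrays. It read 6.69, 7.23, 6.67 and 6.42 in G9a cKO, against 7.09, 6.81, 7.50 and 6.09 in G9a WT. Over the 8 class II chain and Cd74 probe sets with means above 5, G9a cKO replicate 2 was the highest G9a cKO array on 6 and G9a cKO replicate 4 the lowest on 6. G9a WT replicate 3 was the highest G9a WT array on 7 and G9a WT replicate 4 the lowest on 7. H2-Eb1 departed from this in G9a WT replicate 4, where it read 8.99. The median change of these 8 was -0.08, and it depended on single arrays. It was -0.23 without G9a WT replicate 4, 0.06 without G9a WT replicate 3 and 0.02 without G9a cKO replicate 4, so it has no settled sign.

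Cells other than keratinocytes carry class II, and their markers were read beside it. Of 10 Langerhans and dendritic cell markers 9 were measured. Cd207, which encodes langerin, read 4.43, 4.59, 4.39 and 4.33 in G9a cKO, against 4.47, 4.34, 4.55 and 4.32 in G9a WT. These values overlap and lie low on the scale (percentile 23.5 of all probe sets). Within each genotype their order over the arrays is that of H2-Ab1 probe set 1450648_PM_s_at. Cd207 was picked from the list after its values were seen, and the order of the other measured markers is not given, so this match is no result about Langerhans cells. The summed linear signal of the 9 came mostly from Mfge8. It was 988, 968, 954 and 1121 in G9a cKO, against 888, 995, 933 and 867 in G9a WT. This sum was highest on G9a cKO replicate 4, where H2-Ab1 was lowest in that group, and on G9a WT replicate 2. In G9a WT the sum and H2-Ab1 were both lowest on replicate 4. All 12 macrophage and monocyte markers were measured, and 10 of the 12 had a change below 0 (median -0.08, beside -0.0036 over all probe sets). Their summed signal was 373, 378, 340 and 348 in G9a cKO, against 351, 400, 453 and 341 in G9a WT. It was highest on the array of each genotype where H2-Ab1 was highest, G9a cKO replicate 2 and G9a WT replicate 3, and in G9a WT also lowest on the same array, replicate 4. In G9a cKO the 2 differed, with the sum lowest on replicate 3 and H2-Ab1 on replicate 4. Of the 12 markers, 9 averaged under 5 on the log2 scale, so the sum is built mostly from dim probe sets. The 8 measured markers of T cells and all leukocytes summed to 286 to 307 in G9a cKO and 281 to 311 in G9a WT, and the leukocyte marker Ptprc averaged 3.60 ± 0.02 in G9a cKO and 3.61 ± 0.07 in G9a WT (SD, n = 4 each). None of these lists held a called gene by limma, with 2 of their genes, Mfge8 (higher) and Cd68 (lower), at an unadjusted p under 0.05. An array holds no true 0, so absent markers cannot be told from dim ones, and the part of these cells in the class II values was not tested.

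**Figure D2:**
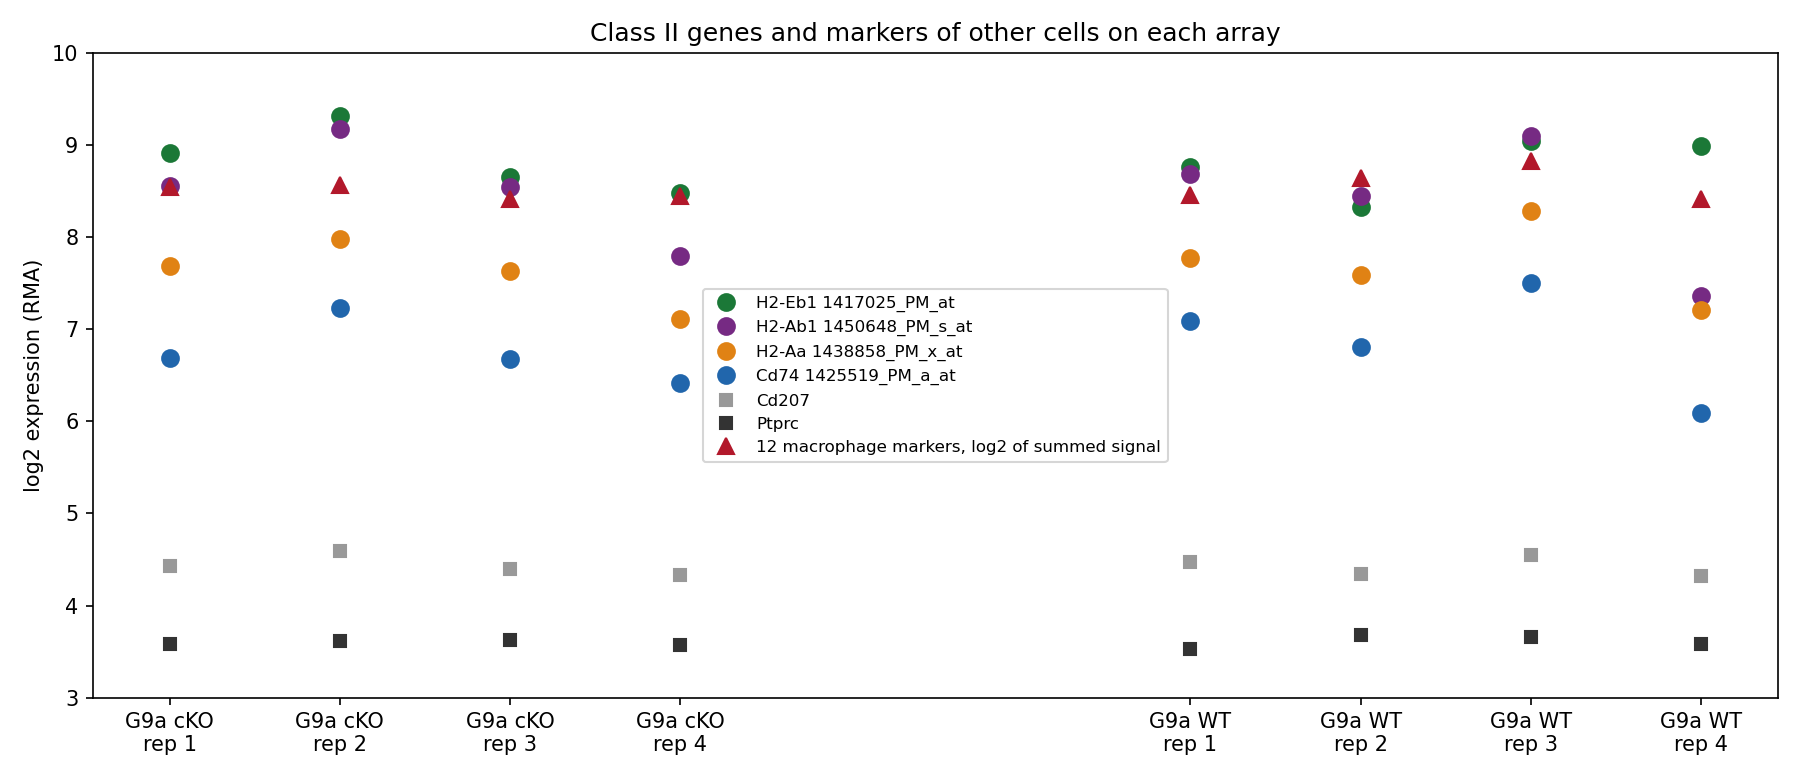
Log2 expression on each of the 8 arrays (horizontal axis, G9a cKO at left, G9a WT at right) of 4 class II probe sets (circles) and of the markers Cd207 and Ptprc (squares), with the log2 of the summed signal of 12 macrophage markers (triangles). H2-Ab1, H2-Aa and Cd74 were lowest on replicate 4 of both genotypes and H2-Ab1 spanned 7.36 to 9.18. Cd207, picked after its values were seen, followed the same order within each genotype between 4.32 and 4.59. The macrophage sum was highest on G9a cKO replicate 2 and G9a WT replicate 3, as H2-Ab1 was. In G9a cKO that sum was lowest on replicate 3, and H2-Ab1 on replicate 4. The sum of the 9 Langerhans and dendritic cell markers, not drawn, was highest on G9a cKO replicate 4 and G9a WT replicate 2.

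The genes that load and edit class II peptides showed 0 called probe sets of 9, with 1 at an unadjusted p under 0.05 in limma. That was H2-DMb1, a beta chain of the DM exchange factor, which read 6.12, 6.33, 6.24 and 6.23 in G9a cKO, against 6.11, 5.93, 6.06 and 6.13 in G9a WT. The arrays overlapped at 1 place, and the change was 0.17 (limma adjusted p = 0.297). H2-DMb2, the other DM beta gene, read 7.97, 8.17, 8.21 and 8.21 in G9a cKO, against 7.97, 7.94, 7.99 and 8.07 in G9a WT (change 0.15, limma adjusted p = 0.405). H2-DMa, the alpha chain, averaged 6.22 ± 0.06 in G9a cKO and 6.29 ± 0.09 in G9a WT, with its second probe set of opposite sign. The DO chains, which restrain DM, lay at percentiles 31.1 (H2-Oa) and 38.3 (H2-Ob) of all probe sets by level, with H2-Oa at 4.72 ± 0.05 in G9a cKO and 4.79 ± 0.07 in G9a WT, and H2-Ob at 5.09 ± 0.01 in G9a cKO and 5.16 ± 0.05 in G9a WT (SD, n = 4 each).

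Of the transactivators, Nlrc5 was measured well and Ciita was not. Nlrc5 read 9.236, 9.227, 9.078 and 8.981 in G9a cKO, against 8.941, 8.957, 9.004 and 8.744 in G9a WT. The highest G9a WT array, replicate 3, lay just above the lowest G9a cKO array, replicate 4. The change was 0.22 (95% interval 0.05 to 0.39, limma adjusted p = 0.234, and 0.16 without G9a WT replicate 4), so no call was made. The 3 Ciita probe sets averaged 4.33 to 4.97 and had changes of -0.02 to -0.0002.

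**Figure D3:**
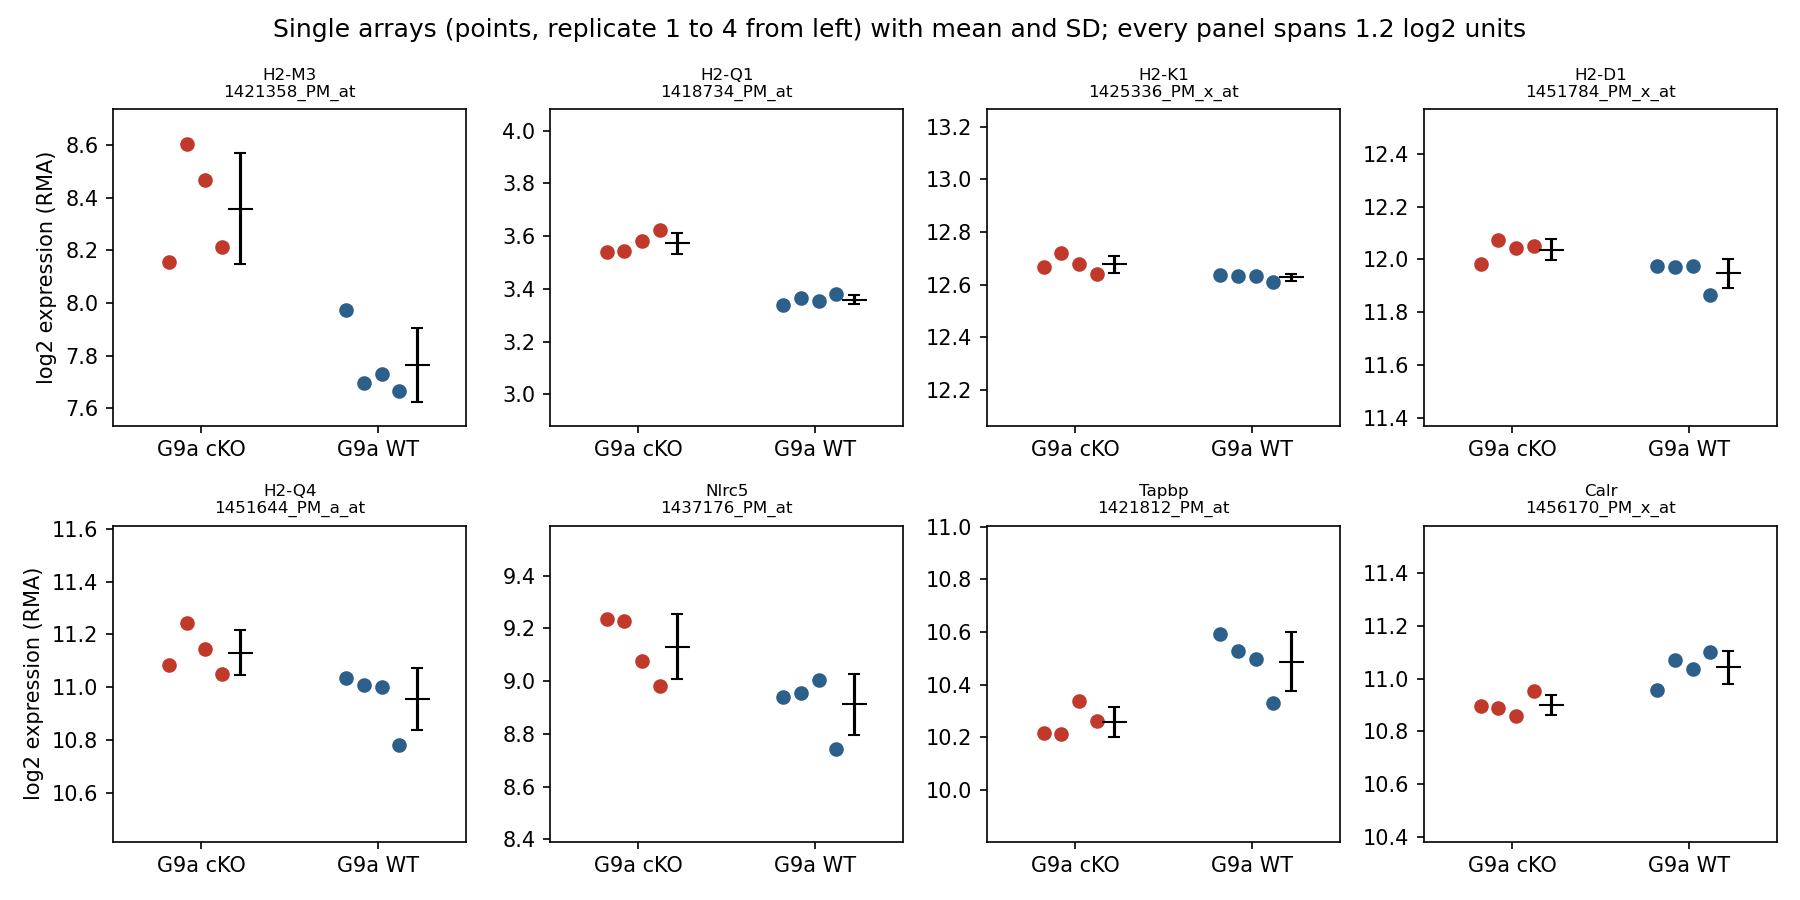
Log2 expression of 8 member probe sets on single arrays, G9a cKO (red) left of G9a WT (blue), with the mean and SD of 4 arrays beside the points and the same span on every vertical axis. H2-M3 and H2-Q1 separate by the most relative to their spread, and G9a WT replicate 4, the rightmost blue point, is the lowest G9a WT array for H2-M3, H2-K1, H2-D1, H2-Q4, Nlrc5 and Tapbp.

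Genes upstream of class I and class II were read at 1 probe set a gene. Of 15 genes of the interferon route to class I, 14 were measured and limma called 0. At an unadjusted p under 0.05, Irf9, a subunit of the type I interferon factor ISGF3, was higher, and Irf1, Socs3 and Ifngr1 were lower. Over all probe sets, 13.0% had such a p in either direction. Irf1, a factor that drives class I genes under interferon gamma, read 8.56, 8.84, 8.48 and 8.42 in G9a cKO, against 9.18, 9.48, 9.04 and 8.55 in G9a WT (change -0.49, limma adjusted p = 0.226). Only G9a WT replicate 4 lay within the G9a cKO range, and without it the change was -0.66 and passed the threshold (limma adjusted p = 0.0170). Socs3, an inhibitor of cytokine signalling, averaged 6.70 ± 0.42 in G9a cKO and 7.55 ± 0.56 in G9a WT (limma adjusted p = 0.181; SD, n = 4 each), and also passed without G9a WT replicate 4 (change -1.11, limma adjusted p = 0.0193). The 8 genes of the complex that binds MHC promoters (the RFX subunits, the NF-Y subunits, Creb1 and Atf1) had changes of -0.04 to 0.11, and none was called or had an unadjusted p under 0.05. The 18 genes of the constitutive proteasome and its activators had changes of -0.06 to 0.09, again with 0 called by limma and 0 at an unadjusted p under 0.05.

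Class I relatives outside the H2 names had no call. Of 14 listed class I-like genes and ligands of natural killer receptors 7 were measured, of which 6 were above 0, 0 were called by limma and 3 had an unadjusted p under 0.05. The 3 were all higher, beside 6.46% of all probe sets that were higher at that p. Cd1d1, which shows lipids to natural killer T cells, read 6.22, 6.17, 5.84 and 6.29 in G9a cKO, against 5.63, 5.69, 5.84 and 5.99 in G9a WT (change 0.34, limma adjusted p = 0.180), with overlapping arrays. Fcgrt, the neonatal Fc receptor, read 7.42, 7.44, 7.44 and 7.43 in G9a cKO, against 7.35, 7.22, 7.11 and 7.31 in G9a WT (change 0.19, limma adjusted p = 0.223), without overlap. H60b, a ligand of NKG2D, averaged 4.21 ± 0.05 in G9a cKO and 4.09 ± 0.07 in G9a WT, at percentile 16.4 of all probe sets by level (SD, n = 4 each).

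Most of these genes share a chromosome with the targeted gene. Of the 35 member genes 27, with 57 probe sets, lie on chromosome 17, and in RefSeq gene order Ehmt2 stands between the class II block and the D and Q regions. From Tapbp, 47 measured genes before Ehmt2, to H2-M3, 75 after it, 123 measured genes follow each other, Ehmt2 included. The nearest members were H2-Ea, 23 genes before, and H2-D1, 28 after. Of the 27 member genes in this interval 2 were called, H2-Q1 (29 after Ehmt2) and H2-M3, and the median change was 0.0041. Over all genes, 2.33% of 17097 were called, and of the 784 measured genes on chromosome 17, 17 were higher and 5 lower. H2-Q1 read at a level that is mostly background, and the H2-M3 call was lost in 4 of 8 fits that left out 1 array. Of the 95 other genes 1 was called, Mrps18b, a mitochondrial ribosomal protein gene 50 after Ehmt2, which averaged 8.43 ± 0.06 in G9a cKO and 8.70 ± 0.08 in G9a WT (change -0.28, limma adjusted p = 0.0442). Its call was lost in 7 of the 8 fits that left out 1 array, with limma adjusted p-values of 0.0509 to 0.170, the exception being without G9a WT replicate 4 (limma adjusted p = 0.0233). The median of the 95 was -0.02. In the 8 member genes on other chromosomes, limma called 0 of 13 probe sets. There, 4 had an unadjusted p under 0.05, beside 13.0% over all probe sets. Nlrc5 was higher, and Calr on both probe sets and Canx were lower.

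**Figure D4:**
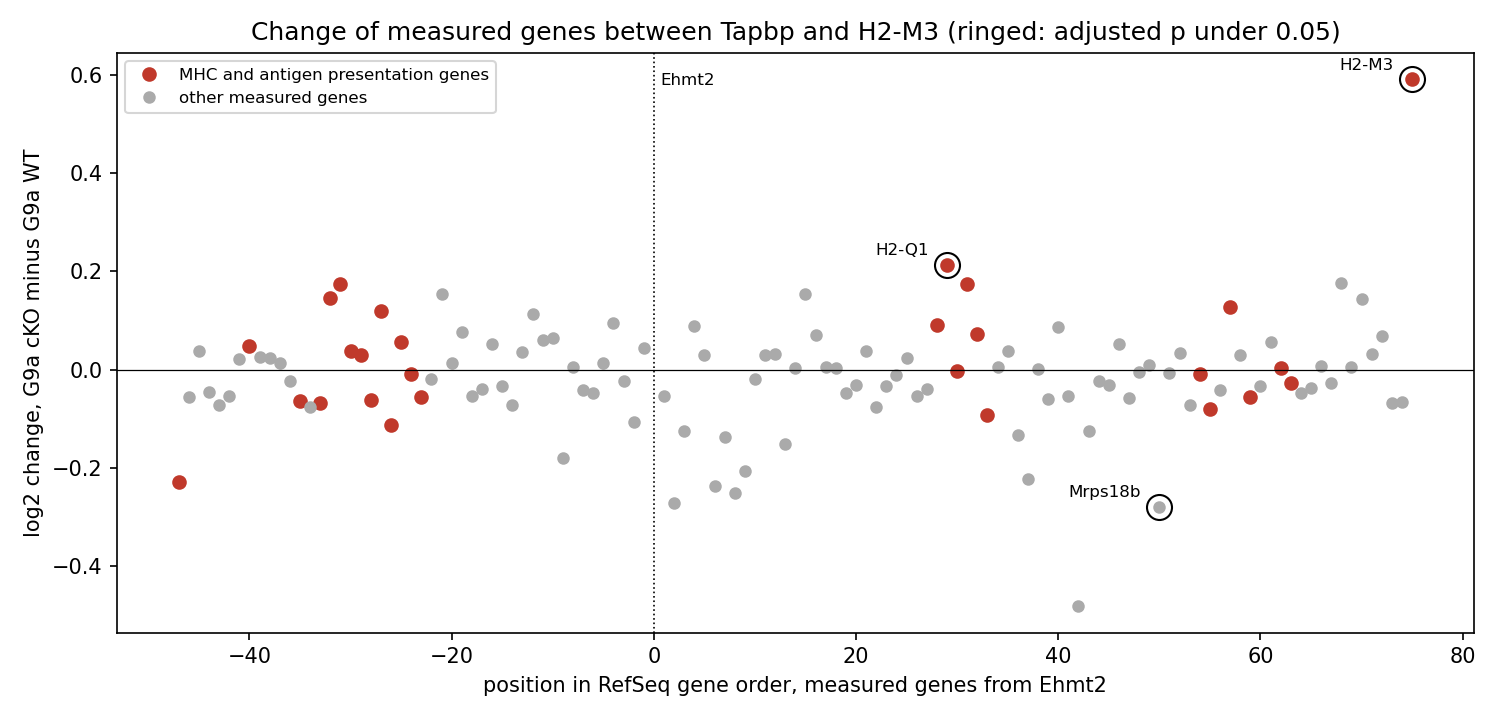
Log2 change, G9a cKO minus G9a WT, of the highest-mean probe set of each measured gene between Tapbp and H2-M3, against its place in RefSeq gene order counted in measured genes from Ehmt2 (dotted line). Red points are the 27 member genes, grey points the 95 others, and rings mark the 3 genes with an adjusted p under 0.05: H2-Q1, Mrps18b and H2-M3.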

How the data were processed

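Expression was measured on Affymetrix mouse arrays, 1 per replicate (4 G9a cKO, 4 G9a WT). The titles name the genotype of the animal and a replicate number, but not whether each replicate is a separate animal. RNA was extracted with TRizol and 25 ng were amplified with WTA2 over 17 cycles, per the labels' protocols. The deposited log2 values per probe set were made by the authors with RMA, per the submitters' processing notes. Its version: not given in the sources used here. RMA can compress differences near the bottom of the scale, so changes of dim probe sets can be understated. Whether they were so here was not tested. Array designs name genes through an annotation that can be old: 28898 of 45141 probe sets had 1 symbol, 551 several and 15692 none. Promoters and gene order come from RefSeq GRCm38.p6.

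Without further normalization, filter or covariate, 45037 probe sets (104 controls left out) were fitted with limma 3.58.1 (lmFit, eBayes with trend) in R 4.3.3, two-sided, with Benjamini-Hochberg adjustment over all of them and a threshold of 0.05. With 4 arrays a group, 20 simulated comparisons over 45037 probe sets, each with 50 seeded changes of a size, recovered a median of 24% (8 to 38%) of log2 changes of 0.25, 77% (64 to 92%) of those of 0.5 and 98% (88 to 100%) of those of 1, and 1.31 to 6.80% of the calls were not seeded. Each simulated comparison held 200 seeded changes in all, spread over probe sets drawn with the means and SDs of the real ones. Members, roles and lists were chosen with earlier results of these data known. The text names the Ehmt2 and Ehmt1 probe sets, every called member, up to 6 genes a role by mean level, called genes of further lists (at most 4 a list) and called genes around Ehmt2. Genes named for an unadjusted p under 0.05, and H2-T3, Ptprc and Cd207, were chosen after their values were seen. Alternatives were a second quantile normalization, arrays set to 1 median, no probe sets from the lowest 40% by level, eBayes with no trend, weights for arrays, a block for the replicate number, 1 probe set per gene, only probe sets with a symbol, thresholds of 0.01 and 0.1, leaving out each array, and, added after seeing the data, the 65 probe sets of matching symbols alone and, for further genes, leaving out G9a WT replicate 4.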

Additional observations from a re-analysis of the deposited data

Results flagged for a closer look

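Among the member, Ehmt2 and further called probe sets, 8 of 152 groups of 4 arrays held 1 array whose gap to the others, over the group's range, exceeded Dixon's critical value at the 95% level. Chance flags about 1 group in 20.

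In 4 of them the array was a low G9a WT replicate 4 on a class I probe set. H2-D1 probe set 1451784_PM_x_at read 11.87 there, with the other G9a WT arrays at 11.97 to 11.98. The probe set 1451683_PM_x_at shared by LOC547349, H2-K1 and H2-D1 read 11.19, with the others at 11.29. H2-Q4 read 10.78, with the others at 11.00 to 11.03, and H2-K1 probe set 1425336_PM_x_at read 12.61, with the others at 12.63 to 12.64. These probe sets can share transcripts, so they count as less than 4 separate cases.

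The remaining 4 lay in other genes. H2-DMb2 probe set 1449580_PM_s_at read 7.97 in G9a cKO replicate 1, below 8.17 to 8.21 in the others of its group. Erap1 probe set 1416942_PM_at read 6.77 in G9a cKO replicate 4, below 6.88 to 6.89. H2-Oa read 4.89 in G9a WT replicate 3, above 4.74 to 4.76. Lgals9 read 7.70 in G9a cKO replicate 2, above 7.54 to 7.56.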

How the results depend on the processing

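H2-Q1 kept its call in 8 of 8 fits that left out 1 array and under the other alternatives in which it was tested (limma adjusted p 0.0019 to 0.0268), but it is removed where dim probe sets are left out. H2-M3 kept its direction throughout. Its call was lost at a threshold of 0.01, with the replicate number as a block (limma adjusted p = 0.0713) and in 4 of 8 fits that left out 1 array. The members called higher were thus 1 with dim probe sets left out, 1 with the replicate block, 1 at a threshold of 0.01 and 1 to 2 when 1 array was left out. The members called lower were 1 with array weights, 1 at a threshold of 0.1 (Tapbp both times) and 0 to 2 when 1 array was left out, 2 being without G9a WT replicate 4. Counted on the 65 probe sets of matching symbols alone, the calls were 2 and 0.

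Over all probe sets, 536 were higher and 266 lower. These counts were 828 and 629 with array weights, 308 and 146 with the replicate block, 329 and 143 with 1 probe set per gene (fewer tested), 243 and 87 at a threshold of 0.01, and 825 and 530 at 0.1. Leaving out 1 array gave 297 to 862 higher and 122 to 829 lower, the most of both without G9a WT replicate 4. Among further pathway and marker genes 2 were called, 1 with the replicate block, and 2 to 5 when 1 array was left out. Among the other genes around Ehmt2 1 was called, 0 after quantile normalization again, 2 with array weights, 0 with the replicate block, 0 at 0.01, 2 at 0.1 and 0 to 3 when 1 array was left out. Where neither the threshold nor fewer arrays or probe sets account for a change, the cause was not tested. No called value changed sign, while 89 of 1198 values of uncalled probe sets did.

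The replicate numbers were not taken to pair the arrays: deviations of same-numbered arrays correlated at -0.54 to 0.07, and 0 of 4 G9a cKO arrays correlated best with their own number. With 4 arrays a group, a log2 change of 0.25 was found in a median of 24% of simulated cases, so changes of that size or smaller could be missed. The rate is for changes spread over all probe sets and does not carry over to each role. The median pooled SD was 0.053 over the 9 class Ia probe sets averaging above 8. It was 0.23 over the class II chains and 0.087 over all probe sets.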

Other observations

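Ligands that restrain or help T cells were listed beside the presentation genes. Of 7 checkpoint and costimulatory ligands 1, Lgals9, passed the threshold, beside 2.33% of 17097 genes. Lgals9, which encodes galectin-9, read 7.56, 7.70, 7.55 and 7.54 in G9a cKO, against 7.14, 7.24, 7.23 and 7.16 in G9a WT, without overlap (change 0.39, limma adjusted p = 0.00851). The call held in 8 of 8 fits that left out 1 array and was lost with the replicate block (limma adjusted p = 0.0521). Cd274, which encodes PD-L1, averaged 5.24 ± 0.09 in G9a cKO and 5.26 ± 0.12 in G9a WT (SD, n = 4 each).

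Of 11 endosomal genes that cut peptides for class II, 9 were measured and limma called 0, with Ctsd alone at an unadjusted p under 0.05 (10.19 in G9a cKO and 10.32 in G9a WT). Ctss, the cathepsin that trims the invariant chain, read 5.32, 5.82, 4.81 and 4.91 in G9a cKO, against 4.68, 6.03, 6.52 and 4.58 in G9a WT. Among markers of other cells, Col1a1, a fibroblast collagen, was lower in G9a cKO (6.17 ± 0.19, against 7.08 ± 0.11 in G9a WT, SD, n = 4 each, limma adjusted p = 0.00114). The other 5 fibroblast markers were not called. None of 4 endothelial, 4 melanocyte and 3 measured B cell markers was called by limma, with Pmel at an unadjusted p under 0.05. The 4 H2 probe sets outside the rule had changes of -0.07 to -0.0019, and limma called 0 of them, with 0 at an unadjusted p under 0.05.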
